A study of Mus musculus with 24 samples.

Results

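The *Dlx* genes and subpallial inhibitory factors were taken as a set of 9 genes out of 54446 in the count tables, chosen by name. They are *Dlx1*, *Dlx2*, *Dlx5*, *Dlx6*, *Gsx1*, *Gsx2*, *Nkx2-1*, *Lhx6* and *Sp9*. RNA-seq libraries were made from 12 mouse embryos at E14.5, each dissected into the secondary prosencephalon (SP) and the diencephalon, midbrain and hindbrain (DMH). There were 3 embryos for each sex and genotype, *Tfap2b*+/+ (control) or *Tfap2b*-/- (mutant), which gave 24 libraries in 8 conditions. All came from crosses of *Tfap2b*+/- mice, and the mutant allele carries a PGK-neo cassette in an exon of *Tfap2b* in every cell of the embryo. The study set aside both libraries of female mutant 3 (mut3), and they entered no fit below unless named.

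*Dlx* genes encode homeobox transcription factors that lie in the genome as pairs transcribed towards each other. In the subpallium, the ventral telencephalon, *Gsx1* and *Gsx2* act in dividing progenitors, the DLX factors follow in late progenitors and newborn neurons, and *Nkx2-1* and *Lhx6* mark the medial ganglionic eminence and the interneurons it makes. GABAergic neurons of the midbrain and hindbrain are specified by other factors, while *Dlx* genes are also used in the prethalamus and hypothalamus, *Nkx2-1* in the hypothalamus, and *Gsx1* in the hypothalamus and hindbrain.

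Levels are given as CPM, the count of a gene per M fragments on genes, with TMM scaling over the 24 libraries. In the GRCm38 build, *Dlx1* (ENSMUSG00000041911.3) lay at chr2:71528113-71533981 and *Dlx2* (ENSMUSG00000023391.8) at chr2:71543408-71546754, with 9.43 kb between them. *Sp9* (ENSMUSG00000068859.5), a zinc finger factor of the lateral ganglionic eminence, was 1.73 Mb further along at chr2:73271925-73284706. *Dlx6* (ENSMUSG00000029754.13, chr6:6863334-6868568) and *Dlx5* (ENSMUSG00000029755.10, chr6:6877805-6882085) were 9.24 kb apart. The paralogs *Gsx1* (ENSMUSG00000053129.5, chr5:147188696-147190947) and *Gsx2* (ENSMUSG00000035946.7, chr5:75075601-75077893) shared a chromosome but not a locus. *Nkx2-1* (ENSMUSG00000001496.15) was at chr12:56531958-56536908 and *Lhx6* (ENSMUSG00000026890.19) at chr2:36081953-36105408.

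Promoters are shown for *Gsx1* and *Gsx2*, which had opposite patterns between the regions, and for *Sp9*, because *Gsx1* and *Sp9* were the members whose promoter held the AP-2 letters. Each is the 250 bases 5′ of the RefSeq start (GRCm38.p6), written 5′ to 3′ on the strand of the gene, and capitals mark a match to GCCNNNGGC, the palindromic AP-2 motif, which reads the same on both strands.
Gsx1, chr5:147188446-147188695: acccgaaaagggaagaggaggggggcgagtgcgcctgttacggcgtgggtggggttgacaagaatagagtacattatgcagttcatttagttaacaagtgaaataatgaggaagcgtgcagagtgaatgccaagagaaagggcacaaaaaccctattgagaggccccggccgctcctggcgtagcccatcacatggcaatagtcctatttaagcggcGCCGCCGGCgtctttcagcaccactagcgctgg
Gsx2, chr5:75075351-75075600: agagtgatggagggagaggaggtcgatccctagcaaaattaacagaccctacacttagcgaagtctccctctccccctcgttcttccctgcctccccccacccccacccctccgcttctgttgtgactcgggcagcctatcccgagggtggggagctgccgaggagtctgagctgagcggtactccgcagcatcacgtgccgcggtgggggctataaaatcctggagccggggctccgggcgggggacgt
Sp9, chr2:73271676-73271925: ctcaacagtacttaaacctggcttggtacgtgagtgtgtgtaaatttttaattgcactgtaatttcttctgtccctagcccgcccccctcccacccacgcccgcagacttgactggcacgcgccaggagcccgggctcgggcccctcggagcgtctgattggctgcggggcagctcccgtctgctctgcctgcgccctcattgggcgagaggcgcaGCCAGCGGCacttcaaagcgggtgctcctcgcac
RefSeq had 9 promoters for 7 of the members, and the motif was in those of 2 members. It was in 13.7% of the 32851 promoters of the same length. TAATTA, a core that homeodomain proteins bind, was in none of the members' promoters and in 4.84% of all. The table had no entry for *Dlx5* or *Dlx6*. These matches are letters only and were not tested for binding.

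*Tfap2b*, the targeted gene, followed the genotype labels in DMH. The 6 controls had 281 to 435 CPM there and the 6 mutants 50.4 to 56.6 CPM, a difference of -2.85 on the log2 scale. In SP it was at 3.48 to 4.19 CPM in controls and 2.75 to 4.72 CPM in mutants, so that SP held little *Tfap2b* in either genotype. Gene totals ran from 24.7 to 66.8 M fragments. A floor of 3 counts was worth 0.0449 to 0.121 CPM, which covers counting error only. Female control 2 held Y-linked transcripts in both of its libraries (122 and 133 CPM summed over 4 genes), and its label was kept.

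Both libraries of male control 3 stood apart in these genes. Its SP library had the lowest level of the 12 SP libraries for all 9 members. In its DMH library 6 members, the 4 *Dlx* genes, *Gsx2* and *Lhx6*, were the highest of the 12 DMH libraries. *Dlx1*, for example, was at 132 CPM in SP and 103 CPM in DMH of this embryo, against 178 to 227 and 20.8 to 63.2 CPM in the other 5 controls. *Emx1*, a pallial factor, was at 0.531 CPM in this DMH library and at 0.151 to 0.718 CPM in those of the other controls. The part of SP tissue in this DMH library was not tested, and values without this embryo are given for the results that rest on it. The DMH library of mut3 held 1783 CPM of 5 cartilage genes, against 65.2 to 88.9 CPM in the other 11, and 643 CPM of 7 skeletal muscle genes, against 5.75 to 8.27 CPM.

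**Figure D1:**
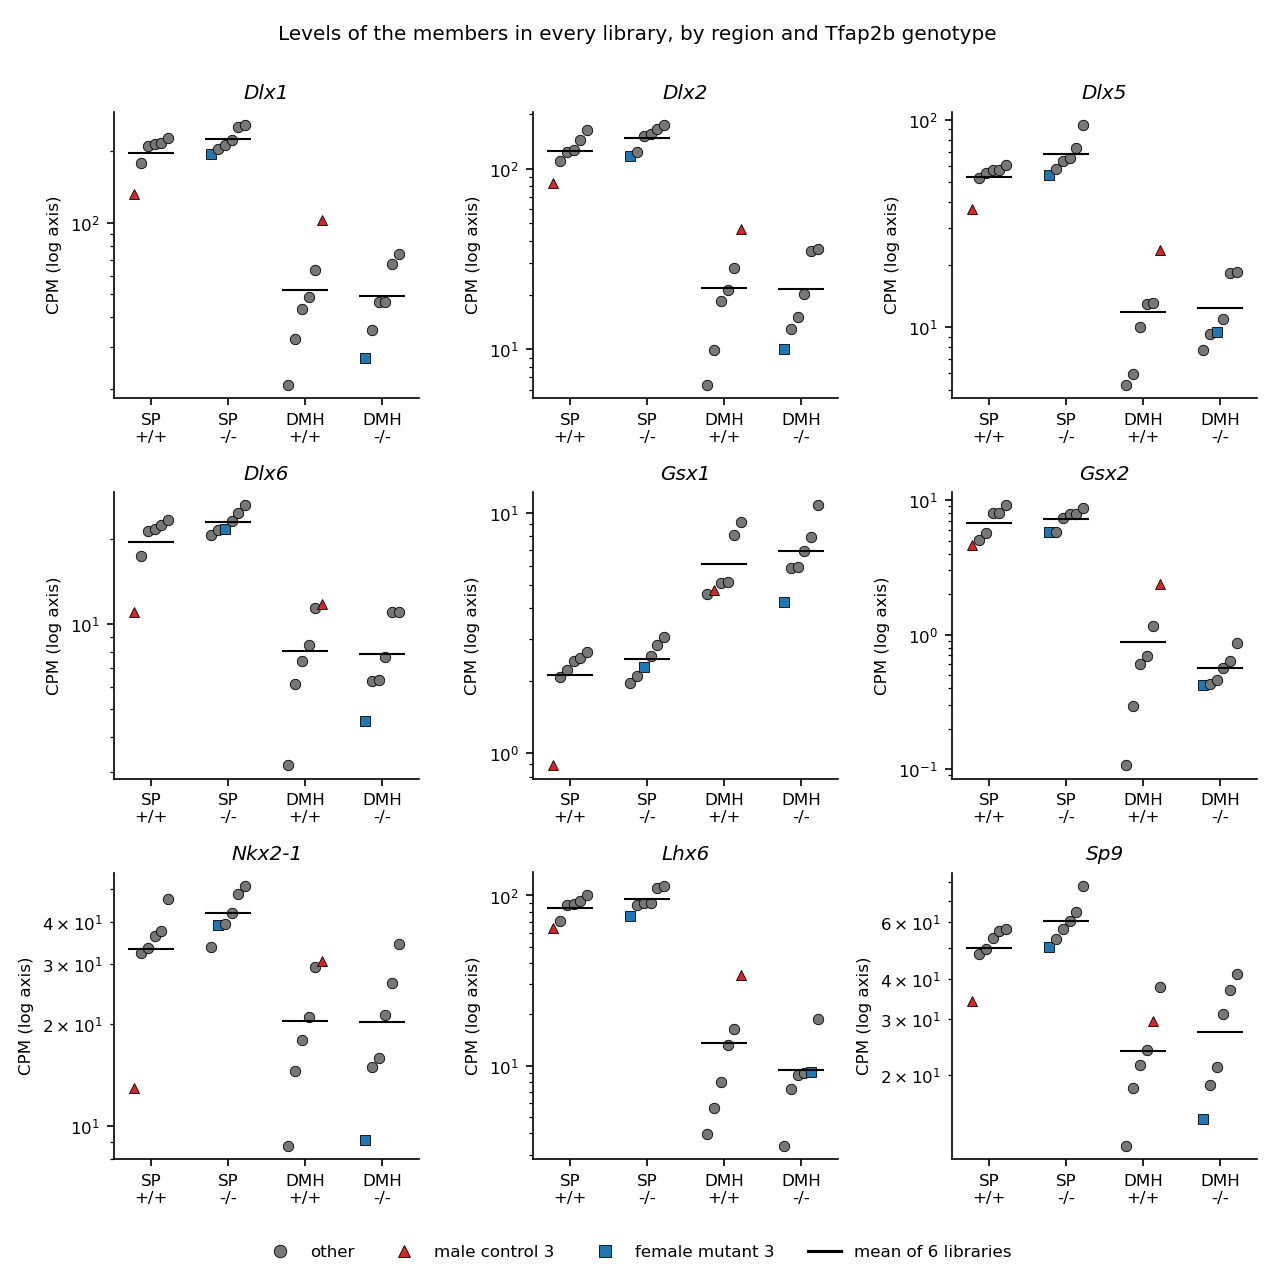
CPM on a log axis of each member in the 24 libraries, by region and *Tfap2b* genotype. Points are libraries, lines the mean of 6, red triangles male control 3 and blue squares female mutant 3. *Gsx1* is the member that is higher in DMH, and the triangle is the lowest SP point in every panel.

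The first comparison asked how the members differ between the regions. In controls 8 of the 9 members were lower in DMH than in SP and *Gsx1* was higher (edgeR quasi-likelihood test at an FDR of 0.2 and a log2 fold change beyond 0.5 in either direction). Of 17196 genes tested 35.9% passed these thresholds, 14.7% lower and 21.2% higher. The median log2 fold change of the members was -1.92, against -0.0029 over all genes tested. In mutants the same 8 were lower and *Gsx1* was higher, where 36.2% of 17148 genes passed, 15.9% lower and 20.3% higher, and the median was -2.18 against -0.011.

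*Dlx2*, which acts with *Dlx1* in the same progenitors, had 83.4, 125 and 162 CPM as the lowest, median and highest value in the 6 SP controls, and 6.36, 19.9 and 46.3 CPM in the 6 DMH controls. The groups did not overlap. DMH differed from SP by -2.49 on the log2 scale (SE 0.43, edgeR adjusted p = 0.000545), or by -3.11 without male control 3. Within an embryo the DMH level was between 5.75 and 23.3% of the SP level in the 11 other embryos, and 55.5% in male control 3.

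*Dlx1* had 132, 213 and 227 CPM in SP controls and 20.8, 46.2 and 103 CPM in DMH controls, without overlap (log2 fold change -1.92, SE 0.36, edgeR adjusted p = 0.000935). *Dlx5*, a factor of newborn GABAergic neurons, had 37.2, 56.0 and 60.1 CPM in SP and 5.26, 11.5 and 23.5 CPM in DMH, again without overlap (-2.15, SE 0.35, adjusted p = 0.000307). *Dlx6*, its neighbour, was the least abundant *Dlx* member in SP, at 11.1, 21.6 and 23.5 CPM, and overlapped in DMH, at 3.16, 7.92 and 11.8 CPM. The overlap came from male control 3, with 11.1 CPM in SP and 11.8 CPM in DMH, and *Dlx6* was lower in DMH in each of the other 11 embryos, at 14.04 to 53.0% of SP. Its log2 fold change was -1.29 (SE 0.29, adjusted p = 0.00259).

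*Gsx2*, which patterns progenitors of the lateral ganglionic eminence, showed the lowest DMH share of all members. It had 4.63, 6.87 and 9.18 CPM in SP controls and 0.107, 0.650 and 2.38 CPM in DMH controls, where the lowest value rested on 3 fragments, the floor. The log2 fold change was -2.79 (SE 0.48, adjusted p = 0.000364), and -3.69 without male control 3. In the 5 mutants tested it was -3.75 (SE 0.16, adjusted p = 2.4e-08). DESeq2 gave no adjusted p for *Gsx2* in controls and called the other 8 members.

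*Gsx1* went the other way in each of the 12 embryos. It had 0.890, 2.32 and 2.63 CPM in SP controls and 4.58, 5.13 and 9.14 CPM in DMH controls, without overlap, which gave a log2 fold change of 1.51 (SE 0.21, adjusted p = 2.3e-05). The fold was 1.51 in mutants as well (SE 0.19, adjusted p = 5.4e-05). The DMH level was 186 to 405% of SP in 11 embryos and 535% in male control 3, whose SP library held 35 fragments of *Gsx1*.

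*Lhx6*, which directs the migration and fate of interneurons from the medial ganglionic eminence, had 64.5, 88.0 and 101 CPM in SP controls and 3.98, 10.6 and 34.2 CPM in DMH controls, without overlap. Its log2 fold change was -2.63 (SE 0.48, adjusted p = 0.000819), and -3.28 without male control 3. In mutants it was -3.49 (SE 0.34, adjusted p = 8.8e-06). *Sp9* had 34.2, 51.5 and 57.3 CPM in SP and 12.0, 22.8 and 37.8 CPM in DMH, with a log2 fold change of -1.09 (SE 0.24, adjusted p = 0.00227). The *Sp9* groups overlapped through male control 3 alone, and the other 5 controls had at least 47.7 CPM in SP and at most 37.8 CPM in DMH.

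*Nkx2-1*, the factor of the medial ganglionic eminence and hypothalamus, was the member with the smallest difference. It had 12.99, 35.0 and 46.7 CPM in SP controls and 8.74, 19.5 and 30.7 CPM in DMH controls, and the groups overlapped. Without male control 3 they did not, at 32.5 CPM or more in SP and 29.6 CPM or less in DMH. Its log2 fold change of -0.69 (SE 0.34, adjusted p = 0.0972) was lost at an FDR of 0.05, when embryo was added as a block (adjusted p = 0.202), and when male control 1, male control 2 or female control 2 was left out (adjusted p = 0.246, 0.259 and 0.268). Without male control 3, in which DMH was at 237% of SP, it was -1.10 (adjusted p = 0.00292), and in mutants it was -1.03 (SE 0.17, adjusted p = 0.000436).

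**Figure D2:**
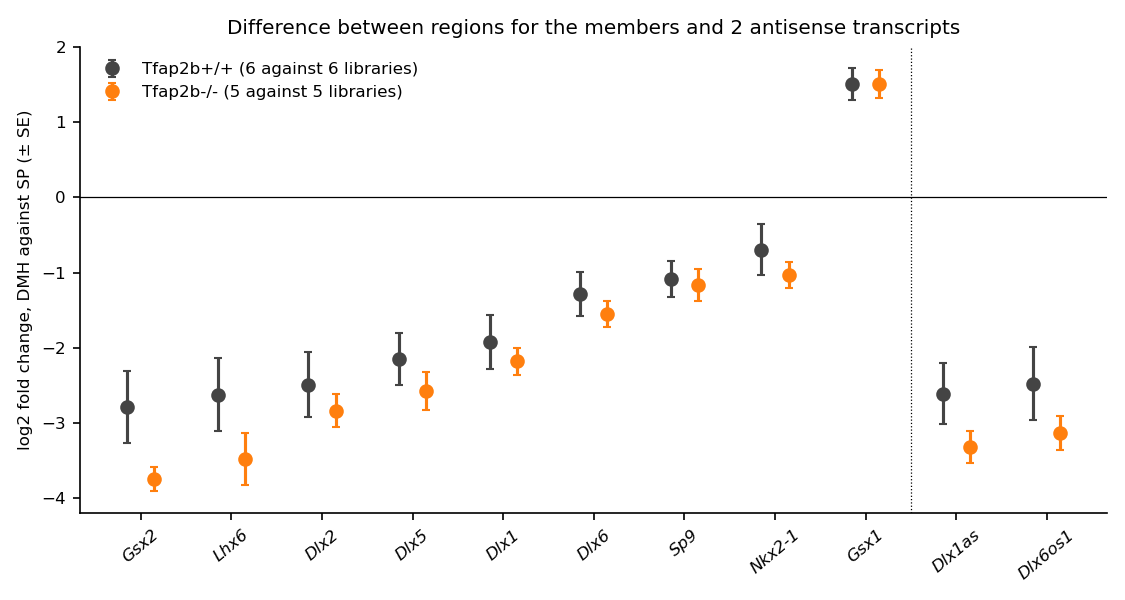
Log2 fold change of DMH against SP with its SE (edgeR), for the 9 members and, right of the dotted line, the antisense transcripts *Dlx1as* and *Dlx6os1*. Black points are controls and orange points mutants, and *Gsx1* alone lies above 0.

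Whether these differences depended on the genotype was tested as the interaction of genotype and region. None of the 9 members passed in edgeR's test, at which 0.00565% of 17684 genes did, and none had an unadjusted p under 0.05, beside 2.06% of all genes. DESeq2 and the likelihood ratio test called none either. The interaction of *Gsx2* was -0.94 and that of *Lhx6* -0.82 on the log2 scale. Without male control 3 these were -0.08 and -0.20, and the other 7 members turned positive or stayed so, at 0.05 to 0.26.

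The order of the members was compared per kb of exon. In SP controls *Dlx2* led with 43.9 ± 9.5 CPM per kb (SD, n = 6), followed by *Dlx1* with 36.4 ± 6.6 CPM per kb, and their values overlapped. *Dlx5* (23.5 ± 3.6), *Lhx6* (17.5 ± 2.9), *Nkx2-1* (11.7 ± 3.9), *Sp9* (9.86 ± 1.68) and *Dlx6* (8.26 ± 1.96 CPM per kb) came next, each overlapping the next. *Gsx2* was at 4.07 ± 1.14 CPM per kb and *Gsx1* at 1.20 ± 0.36, without overlap between these paralogs. In DMH controls *Dlx1* was first, at 9.62 ± 5.33 CPM per kb, then *Dlx2* at 7.63 ± 5.03 and *Nkx2-1* at 7.19 ± 3.01. Without male control 3 the latter pair exchanged places, with *Nkx2-1* at 6.46 ± 2.72 and *Dlx2* at 5.92 ± 3.09 CPM per kb (SD, n = 5). *Gsx1* was above *Gsx2* there, at 3.46 ± 1.11 against 0.525 ± 0.493 CPM per kb. All neighbours in the DMH order overlapped. Within libraries, *Dlx1* was above *Dlx2*, *Nkx2-1* above *Dlx5* and *Lhx6* above *Gsx2* in 6 of 6 DMH controls. The other DMH neighbours kept their order in 2 to 5 of 6, and the SP neighbours in 5 or 6 of 6.

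Transcripts made from the opposite strand of the *Dlx* pairs were lower in DMH too. *Dlx1as*, which runs through *Dlx1*, was at 32.5 to 41.7 CPM in SP controls and at 2.38 to 14.7 CPM in DMH controls (log2 fold change -2.61, SE 0.40, adjusted p = 0.000233). *Dlx6os1* (also called Evf2), a long non-coding RNA that starts beyond *Dlx6* and overlaps it, was at 136 to 200 CPM and at 10.1 to 84.2 CPM (-2.48, SE 0.49, adjusted p = 0.00126). *Dlx6os2* was at 0.432 to 0.750 CPM in SP and at 0 to 0.594 CPM in DMH, and was also lower (-1.67, adjusted p = 0.0137). *Dlx3*, of the surface ectoderm and skeleton, was at 0.284 to 0.756 CPM in DMH controls, and *Dlx4* at 0 to 0.0659 CPM. Neither passed the filter on low counts in the region comparison.

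The share of each neighbour was then compared between regions within embryos, with 4 ratios chosen after the values had been seen. Gene length is the same in both regions and drops out. There were 9.02 ± 1.26 fragments of *Dlx6os1* for 1 of *Dlx6* in SP and 3.31 ± 1.39 in DMH (SD, n = 11 embryos without mut3), a mean log2 difference of -1.52 with DMH lower in 11 of 11 embryos. *Dlx1as* to *Dlx1* went from 0.199 ± 0.019 to 0.102 ± 0.020 (log2 difference -0.98), *Dlx5* to *Dlx6* from 2.88 ± 0.40 to 1.47 ± 0.31 (-0.99) and *Dlx2* to *Dlx1* from 0.657 ± 0.103 to 0.410 ± 0.074 (-0.68). Each was lower in DMH in 11 of 11 embryos, with a two-sided exact permutation p of 0.001, the smallest that 11 pairs can give, also after Benjamini-Hochberg adjustment over the 4. Without male control 3 the log2 differences were -1.59, -1.002, -1.02 and -0.70, each lower in 10 of 10 embryos. In these stranded libraries 66.7% of the stranded fragments on *Dlx1* exons were on its own strand (median of 24, range 56.3 to 80.5%), against 96.0% for *Dlx6* and 99.1% for *Dlx2*. With unstranded counts the region difference of *Dlx1* was -2.14 and that of *Dlx6* -1.28.

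**Figure D3:**
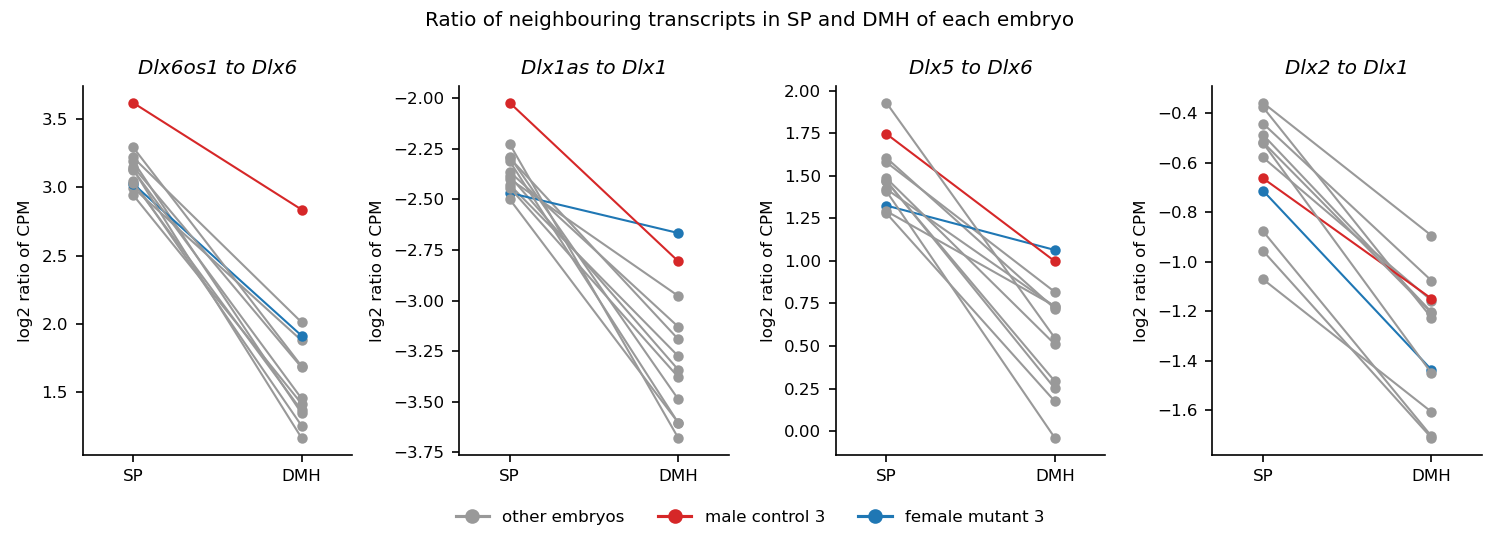
Log2 ratio of the CPM of neighbouring transcripts in SP and DMH, with 1 line for each of the 12 embryos. All 48 lines fall from SP to DMH, and male control 3 (red) has the highest ratio of *Dlx6os1* to *Dlx6* in both regions.

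Among the genes whose profile over the 24 libraries was nearest to the mean of the 4 *Dlx* members were *Cdca7*, *Nkx2-3*, *Pbk*, *Abracl*, *Kif11*, *Top2a*, *Spag5*, *AC093020.1* and *Cdc25c*, by the root mean square difference of mean-centred log2 CPM. *Cdca7*, a gene linked to the cell cycle, was at 0.267, further than *Dlx5* (0.182) and closer than *Dlx2* (0.357) or *Dlx6* (0.401). It had a mean of 135 CPM in SP and 28.0 CPM in DMH. *Pbk*, *Kif11*, *Top2a*, *Spag5* and *Cdc25c* are genes of dividing cells. *Top2a*, a topoisomerase, had a mean of 554 CPM in SP and 155 CPM in DMH. The libraries share their regions, so a profile of this kind mostly follows the difference between SP and DMH.

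Other genes listed for subpallial progenitors and for the inhibitory lineages did not all follow the members. The part of other cell types in the values of these genes was not tested. Of 10 other factors of subpallial progenitors, 3 were lower and 3 higher in DMH of controls (median 0.04), with *Sp8* lower (-1.51, adjusted p = 2.3e-07) and *Otx2* (2.07, adjusted p = 1.0e-07), *Nkx6-2* (2.43, adjusted p = 4.5e-07) and *Olig1* (1.92, adjusted p = 6.5e-07) higher. Of 15 genes of the interneuron lineage 5 were lower and 3 higher (median -0.08). *Zeb2* (-1.63, adjusted p = 1.4e-10), *Sox6* (-1.45, adjusted p = 2.5e-10) and the chemokine receptor *Ackr3* (-1.26, adjusted p = 7.8e-09) were lower, and *Nxph1* was higher (1.19, adjusted p = 1.2e-07). Of 13 genes of striatal projection neurons 4 were lower, such as *Bcl11b* (-1.93, adjusted p = 1.1e-11) and the dopamine receptor gene *Drd1* (-1.62, adjusted p = 1.2e-09), and 4 were higher, such as *Ebf1* (1.304, adjusted p = 4.7e-09) and *Drd2* (1.18, adjusted p = 4.1e-07).

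Genes for GABA itself did not follow the *Dlx* members in controls. *Gad1*, which makes GABA, was at 36.4 to 77.01 CPM in SP controls and 89.0 to 124 CPM in DMH controls (log2 fold change 1.04, adjusted p = 7.5e-05). *Slc32a1*, the vesicular GABA transporter, was at 26.3 to 42.3 and 54.5 to 61.0 CPM (0.65, adjusted p = 7.0e-05). *Gad2* was at 83.3 to 142 and 106 to 143 CPM (0.04, SE 0.12, adjusted p = 0.779). In mutants *Gad1* was called higher (0.83, adjusted p = 8.4e-05), whereas *Slc32a1* (0.49, adjusted p = 0.0124) and *Gad2* (-0.30, adjusted p = 0.0423) did not pass the fold threshold.

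Marker lists of the tissue moved with the region. All 7 pallium markers were lower in DMH of controls (median -4.20), with a sum of 1570 to 2693 CPM in the 12 SP libraries and 114 to 162 CPM in the 12 DMH libraries. *Emx1* fell by 6.95 on the log2 scale. Of 12 prethalamus and hypothalamus markers 11 were higher in DMH (median 2.63), with a sum of 27.8 to 81.6 CPM in SP and 249 to 389 CPM in DMH. All 8 markers of thalamus, midbrain and hindbrain were higher (median 7.29). Their part in the member differences was not tested, and in bulk tissue fewer cells of a type cannot be told apart from less RNA per cell.

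The second question was whether loss of *Tfap2b* altered the members. No member passed the thresholds in any of the 4 comparisons of a sex and region or in the 2 fits of both sexes (edgeR). Genes that did pass were 0.0181% in female SP, 0% in male SP, 0.00596% in female DMH, 0.0236% in male DMH, 0% in SP of both sexes and 0.0523% in DMH of both sexes, so the background was close to 0 as well. At an unadjusted p under 0.05 there were 1, 3, 3, 1, 3 and 1 members, beside 2.58, 3.65, 8.9, 2.89, 5.07 and 15% of all genes tested. DESeq2 and the likelihood ratio test called 2 members each in female DMH, beside 0.459 and 0.62% of all genes, and none in the other 5. Those 2 were *Dlx2* and *Dlx5*, which the study also listed among its upregulated genes of female DMH at the same thresholds. Its text does not name the test it used, so the edgeR result here is not a repeat of that test.

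In SP, where *Tfap2b* was low, all 9 members had a positive log2 fold change in mutants, between 0.24 and 0.45 with a median of 0.28, against 0.004 over all genes tested. None was past the test (edgeR adjusted p of at least 0.901). *Dlx5* had 52.1, 57.0 and 60.1 CPM in female controls and 57.6 and 63.3 CPM in female mutants, and 37.2, 55.1 and 57.0 CPM in male controls and 65.2, 73.2 and 94.7 CPM in male mutants. The male groups did not overlap and the female groups did. The highest value was that of male mutant 1, an SP library that stood apart, with a pallium marker sum of 2693 CPM against 1570 to 2243 CPM in the other 11, the largest unmapped share (9.98%) and a chi-square per gene of 149 and 181 against its replicates. Without it the 9 members were at 0.18 to 0.48 with a median of 0.26. *Dlx5* was at 0.43 in both sexes together (SE 0.15, edgeR adjusted p = 0.901), *Dlx2* at 0.36 (SE 0.13) and *Nkx2-1* at 0.45 (SE 0.23). The lowest male control was male control 3 for each member, and without it the 9 log2 fold changes were 0.07 to 0.29 with a median of 0.19. Markers of neighbouring regions had negative values in mutant SP, 7 of the 10 prethalamus and hypothalamus markers tested (median -0.20) and all 3 of the thalamus, midbrain and hindbrain markers tested (median -0.73), none past the thresholds. Without male mutant 1 the prethalamus and hypothalamus values were 5 positive and 5 negative (median -0.04). The thalamus, midbrain and hindbrain values were then negative for all 4 tested (median -0.39). Without male control 3 the 2 medians were -0.41 and -0.93. The summed thalamus, midbrain and hindbrain markers were at 162 CPM in SP of male control 1 and at 16.3 to 59.2 CPM in the other 10 SP libraries of the fit. Without male control 1 the members were at 0.21 to 0.49 with a median of 0.33, and the part of these regions in the member values was not tested.

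In DMH of both sexes the *Dlx* members differed by less than their errors between genotypes. *Dlx2* was at 18.6, 21.2 and 28.3 CPM in female controls, 35.1 and 36.0 CPM in the female mutants tested and 9.998 CPM in mut3. In males it was at 6.36, 9.94 and 46.3 CPM in controls and 13.01, 15.2 and 20.2 CPM in mutants. The female groups were separate without mut3, and the male mutants lay between male controls 1 and 2 and male control 3. The log2 fold changes were 0.03 for *Dlx1* (SE 0.39), 0.07 for *Dlx2* (SE 0.50), 0.08 for *Dlx5* (SE 0.40) and 0.08 for *Dlx6* (SE 0.27), each with an edgeR adjusted p of at least 0.896. *Gsx1* was at 0.35 (SE 0.13, unadjusted p = 0.0218, adjusted p = 0.327), *Gsx2* at -0.72 (SE 0.61) and *Lhx6* at -0.57 (SE 0.65).

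These DMH values rested on male control 3. Without it all 9 log2 fold changes were positive, from 0.19 to 0.80 with a median of 0.48, and 7 members had an unadjusted p under 0.05, beside 18.5% of all genes. *Dlx5* passed the thresholds, as did 0.0351% of 17099 genes, at 0.66 (SE 0.10, edgeR adjusted p = 0.138). *Dlx2* (0.80, SE 0.17, adjusted p = 0.236) and *Dlx1* (0.56, SE 0.14, adjusted p = 0.236) did not. *Gsx2* changed sign, from -0.72 to 0.35, and *Lhx6* from -0.57 to 0.19. Of the 12 prethalamus and hypothalamus markers 11 had a positive log2 fold change in mutant DMH with all embryos (median 0.42) and 11 without male control 3 (median 0.42). The exception, *Foxb1*, was called lower with all embryos (-0.51). The part of these regions in the member values was not tested.

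In female DMH, 3 controls against 2 mutants, *Dlx5* was at 10.04, 12.9 and 13.03 CPM in controls and 18.1 and 18.4 CPM in mutants. This was 0.62 on the log2 scale (SE 0.13, edgeR unadjusted p = 0.00118, adjusted p = 0.551). *Dlx2* was at 0.66 (SE 0.17, adjusted p = 0.551). DESeq2 called both (adjusted p = 0.0772 and 0.0841), as did the likelihood ratio test (adjusted p = 0.0714 and 0.107) and the edgeR fit without a filter on low counts. Over all genes these 3 fits called 77 and 104 of 16773 and 535 of 29519, against 1 in the edgeR test. Without female control 1, 5 members passed, namely *Dlx1*, *Dlx2*, *Dlx5*, *Nkx2-1* and *Sp9*, with log2 fold changes of 0.62, 0.85, 0.68, 0.65 and 0.79. Over all genes 1117 passed in that fit, against 1 with this library. Both controls left had caudal *Hox* transcripts (352 and 541 CPM) and both mutants nearly none (0.942 and 0.105 CPM), so that genotype and the content of the pieces cannot be told apart there. With mut3 included they were at 0.11, 0.25, 0.36, 0.03 and 0.16 and none passed. In male DMH *Dlx2* was at -0.43 and *Dlx5* at -0.38, and at 0.96 and 0.70 without male control 3. The interaction of genotype and sex in DMH passed for no member and had none with an unadjusted p under 0.05, where 0% of 17555 genes passed and 2.0% had such a p. DESeq2 and the likelihood ratio test called none. In SP that interaction passed for no member either, where 0% of 17348 genes passed, and DESeq2 and the likelihood ratio test called none. *Gsx2* alone had an unadjusted p under 0.05 there, beside 2.21% of all genes, at 0.50 (SE 0.21), and the median of the 9 members was 0.41, or 0.12 without male control 3. Female control 2, which held Y-linked transcripts, counted as female in these interactions and in the female comparisons. With sex taken from Y-linked transcripts, neither fit of both sexes called a member. Those fits called 5 of 17223 genes in DMH and 0 of 16973 in SP.

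**Figure D4:**
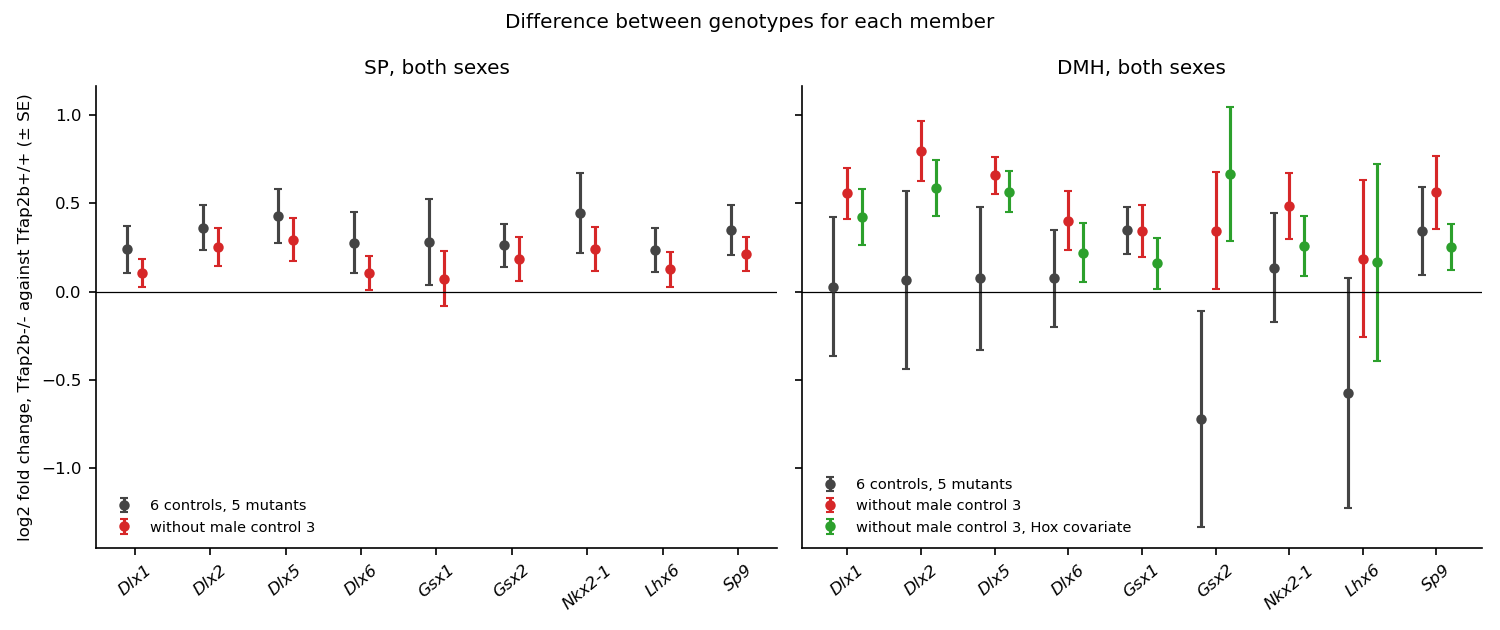
Log2 fold change of mutants against controls with its SE (edgeR), for each member in SP (left) and DMH (right) of both sexes. Black points hold 6 controls and 5 mutants, red points leave out male control 3, and green points leave it out and have the caudal *Hox* sum as a covariate. In DMH the red and green points all lie above 0.

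The DMH pieces differed in how much caudal hindbrain they held, which was read from the summed CPM of 15 caudal *Hox* genes. It was 352 to 541 CPM in 8 DMH libraries and 0.0378 to 15.3 CPM in the other 4, which were female control 1, female mutants 1 and 2 and male mutant 2. All members had a higher median in the 4 libraries nearly without *Hox* transcripts, a description with no test. The share of all genes with a higher median there is not given, so this count is not particular to the members. The ratio of medians was smallest for *Lhx6* (1.32) and *Gsx2* (1.40). The summed prethalamus and hypothalamus markers moved with this split, at 346 to 389 CPM in the 4 libraries and 249 to 363 CPM in the 8 others, and their part in the members' levels was not tested. *Sp9* was at 31.1, 36.8, 37.8 and 41.4 CPM there and at 12.0 to 29.4 CPM in the 8 others, and the groups did not overlap. *Nkx2-1* was at 21.3, 26.4, 29.6 and 34.4 CPM, above the 7 libraries with *Hox* transcripts other than male control 3, at 8.74 to 21.02 CPM. *Dlx2* was at 20.2, 28.3, 35.1 and 36.0 CPM against 6.36 to 21.2 CPM in those 7, and the ratio of medians over all 12 was 2.25. *Gsx1* was at 6.92 to 10.8 CPM against 4.25 to 8.10 CPM. *Lhx6*, at 3.37 to 18.7 CPM against 3.98 to 34.2 CPM over the 8, had the widest overlap.

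Of these 4 libraries 3 were mutants, so this difference in the pieces and the genotype were partly confounded in DMH. With the log2 *Hox* sum as a covariate 7 of 9 members had a negative genotype difference (*Dlx2* -0.31, *Dlx5* -0.17), and in libraries with *Hox* transcripts 8 of 9 (*Dlx2* -0.62, *Dlx5* -0.50). Without male control 3 these turned to 0.59 and 0.57 with the covariate and to 0.78 and 0.59 within the libraries with *Hox* transcripts, and all 9 members were positive in both fits. None of the 4 fits called a member (edgeR adjusted p of at least 0.487). Of all genes these fits, in the order given (covariate, libraries with *Hox* transcripts, then both without male control 3), called 0.0399, 0.0228, 0.0229 and 0.0173%. In them 0, 0, 3 and 2 members had an unadjusted p under 0.05, beside 2.79, 1.6, 5.25 and 3.8% of all genes.

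**Figure D5:**
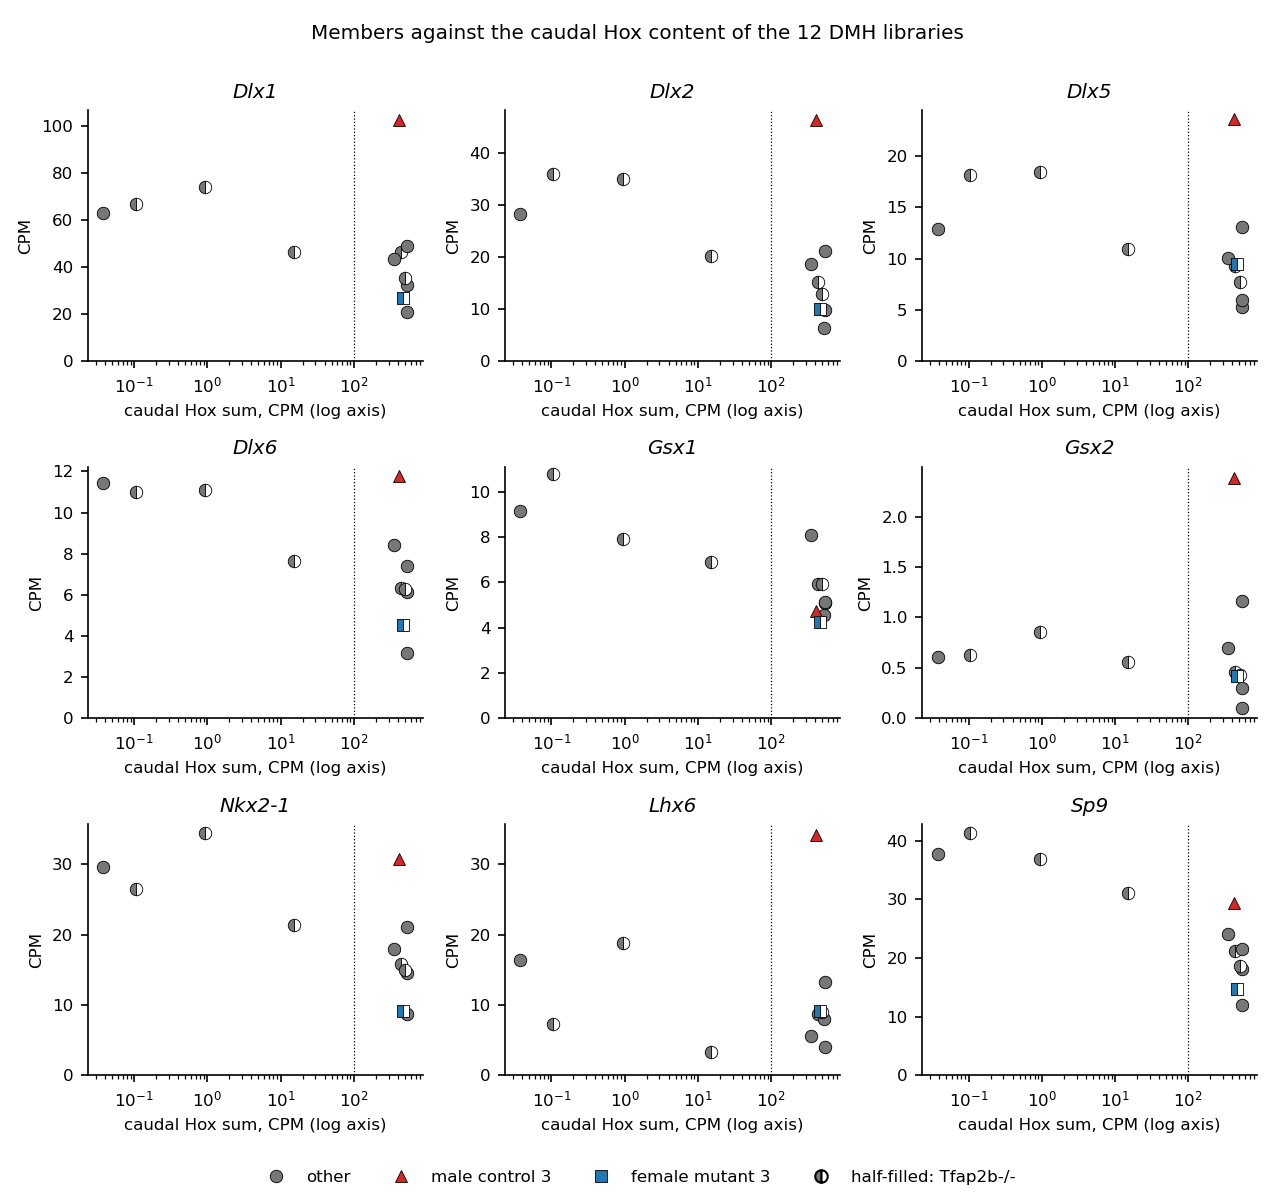
CPM of each member in the 12 DMH libraries against the summed CPM of 15 caudal *Hox* genes on a log axis. The dotted line is at 100 CPM, half-filled points are mutants, red triangles male control 3 and blue squares female mutant 3. *Sp9* is higher in all 4 libraries left of the line than in the 8 right of it.

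The other genes listed for subpallial progenitors and the inhibitory lineages were also without calls between genotypes in either region in the fits of both sexes. In DMH 10 of 15 interneuron genes had a negative log2 fold change (median -0.09), as had 11 of 13 striatal genes (median -0.14) and all 3 genes for GABA (median -0.04). In SP 13 of 15, 11 of 13 and 2 of 3 were positive, with medians of 0.09, 0.12 and 0.14. Of the 10 other progenitor factors 6 were positive in DMH (median 0.24) and 8 in SP (median 0.18). *Dlx6os1* and *Dlx1as* were at -0.36 each in DMH, and *Dlx3* at -0.40, while *Dlx6os2* did not pass the filter on low counts there. In SP *Dlx6os1*, *Dlx1as* and *Dlx6os2* were at 0.24, 0.29 and 0.50, and none of these values passed the test. The DMH values of the antisense transcripts rested on male control 3, without which *Dlx6os1* was at 0.51 and *Dlx1as* at 0.40 (edgeR adjusted p = 0.236 and 0.243), and *Dlx3* at -0.45. Without it the medians of the interneuron, striatal, GABA and progenitor lists in DMH were -0.09, -0.09, -0.02 and 0.32. In SP the medians of these lists were 0.07, 0.05, 0.04 and 0.11 without male control 3. Without male mutant 1 they were 0.02, 0.06, 0.19 and 0.28 in SP, where 8 of 15 interneuron genes were then positive. Leaving out male mutant 1 moved the calls over all genes in DMH from 9 to 531 of 17114 (3.1%), with no member among them. They then held *Otx2* (0.60), *Olig1* (-0.53) and the striatal gene *Rarb* (-0.61), each with an edgeR adjusted p of 0.169. The same fit called 6 of the 12 prethalamus and hypothalamus markers at that adjusted p, with *Six6* (0.93), *Rax* (0.92), *Nr5a1* (0.85), *Pomc* (0.82) and *Fezf1* (0.70) higher in mutants and *Foxb1* lower (-0.51), and 1 of the 5 facial mesenchyme markers tested, *Alx4* (0.51).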

How the data were processed

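The authors deposited 1 table per library with raw counts of fragments per gene, in 3 count columns. Per the submitters' processing notes reads were trimmed with cutadapt 2.4 and aligned to GRCm38.p6 with STAR 2.6.1d; the annotation release was not given in the sources used here. Counts were taken from the column that matches dUTP libraries, with the unstranded column as an alternative and 1 count column in no fit. Fragments on no gene were 4.68 to 7.46% unassigned, 1.10 to 1.62% ambiguous, 4.96 to 7.85% multimapping and 5.46 to 9.98% unmapped, and multimapping fragments are not in gene counts.

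All genes were fitted in edgeR 4.0.16 (R 4.3.3; TMM, filterByExpr, robust quasi-likelihood), 1 fit per comparison, with sex as a covariate where both sexes entered and Benjamini-Hochberg adjustment over all genes tested. Thresholds were an FDR of 0.2 and an absolute log2 fold change of 0.5, as in the study. SE is the absolute log2 fold change over the square root of F. DESeq2 1.42.0 and edgeR's likelihood ratio test were alternatives, and the scripts were tested on simulated data. The members and lists were chosen with earlier results of these data known. Named genes are the members, *Tfap2b*, up to 4 genes of each list with the smallest p in a comparison, and the 10 genes nearest to the *Dlx* profile among 18089 genes that passed the filter over 24 libraries (log2 of CPM plus 0.1), of which 1 is not reported here; *Dlx3*, *Dlx4*, *Dlx6os2* and single genes of a list were named after their values were seen. Ratios within embryos were tested by exact permutation of the region labels. The SP and DMH libraries with the same number were taken to come from the same embryo, which the labels do not state. Results within embryos rest on this. Their deviations from the group means correlated at 0.0698 to 0.428 over 12 pairs. Libraries of the same number across genotypes gave -0.155 to 0.541, so these correlations do not settle the pairing. Gene positions and exon lengths are those of GENCODE vM21, in which the 9 members had the same identifier version. Across genotypes a replicate was a separate embryo. No 2 libraries of a condition were copies, since chi-square per gene was at least 9.62 in the 24 pairs. Figures were drawn with matplotlib.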

Additional observations from a re-analysis of the deposited data

Results flagged for a closer look

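Of 36 groups of 6 libraries, 9 members in 4 combinations of region and genotype with mut3 included, 2 held a library that stood away from the rest by Dixon's criterion, and chance alone flags about 1 in 20 groups. Both were the SP library of male control 3. *Dlx5* was at 37.2 CPM there, below the next SP control at 52.1 CPM, and *Gsx1* was at 0.890 CPM, below the next at 2.07 CPM. Whether the dissection of this embryo set these levels was not tested. No difference of a genotype effect between regions or sexes passed a test for any member.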

How the results depend on the processing

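Over 172 counts of members past the thresholds under an alternative, 166 were the same as the main count or within 1.5 times of it. The 6 others were all for genotype in DMH. In female DMH the count rose from 0 to 2 without a filter on low counts, with the likelihood ratio test and with DESeq2, to 1 (*Dlx5*) with the replicate number as a block, and leaving out each library in turn gave 0 to 5. In DMH of both sexes leaving out each library in turn gave 0 to 1, the 1 being *Dlx5* without male control 3. Counts when each library was left out were 8 to 9 for the region in controls, 9 to 9 in mutants and 0 to 0 in the other genotype comparisons. The cause of these changes was not tested.

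The direction of the region difference held for every member under all alternatives run (0 of 268 values changed sign). Between genotypes and in interactions 104 of 1273 values of members changed sign, none of them past the thresholds in either setting. For the region the replicate block is the embryo, as paired by number, and besides *Nkx2-1* in controls it changed no call. Across genotypes replicate numbers name separate embryos, and libraries of the same number correlated at -0.155 to 0.541, so that block is not a pairing; besides *Dlx5* in female DMH it called no member. It moved the calls over all genes from 3 to 71 in female SP and from 1 to 41 in female DMH. Alternatives with male control 3 left out of the *Hox* fits and the interactions were chosen after seeing the data. Depth limited *Gsx2* in DMH, which had 3 to 112 fragments per library.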
